A study of Rattus norvegicus with 6 samples.

Results

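Ribosome biogenesis factors are the proteins that make ribosomes without staying in them. They were examined as a list of 48 genes in the corneal epithelium of diabetic and normal rats, and 47 of the 48 were found by symbol among the 61453 loci of the deposited tables. *Heatr1* was not analysed here, because no locus carried that symbol. Where several loci carried a symbol (15 genes), the protein coding locus of highest mean FPKM was taken. FPKM are fragment counts scaled by a length and by library size, and the length used is not the genomic span of the locus. Of the 48 listed genes, 23 carry the ribosome biogenesis term of KEGG in the tables.

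The diabetic group consisted of male Brown Norway rats given 1 intraperitoneal injection of streptozotocin (STZ, 50 mg/kg), a toxin of the insulin-producing beta cells. The normal group (NOR) received citrate buffer. Epithelium was scraped from the cornea at 16 weeks, blood glucose above 16.67 mmol/l counted as diabetic, and each group has 3 libraries. The study used 6 rats in 2 groups, and the RNA came from 6 corneas a group. Which rat or corneas each library holds is not stated in the methods or labels, so the p-values measure the spread between these libraries, which may be partly technical.

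Ribosomes are built in the nucleolus. RNA polymerase I copies the ribosomal DNA into a long precursor, small nucleolar ribonucleoproteins (snoRNPs) guide its cleavage and chemical modification, and separate sets of factors then fold and trim the parts that become the small (40S) and large (60S) subunits. The pathway is among the most costly that a cell runs, its genes are well-known targets of the growth factor Myc, and a renewing surface such as the corneal epithelium relies on it for growth and repair.

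All 47 factors were expressed and passed the filter of a mean FPKM of at least 0.5. None of the 47 passed the test between diabetic and normal libraries in limma, where 0.0188% of all loci passed as higher and 0.00705% as lower. None passed in edgeR or DESeq2, and 1 (*Imp3*) had an unadjusted p under 0.05 in each of the 3 tools. A negative log2 fold change, meaning a lower level in diabetic libraries, was found for 34 of 47 factors (72.3%), against 51.0% of the 42551 loci tested and 51.0% of the 12278 tested protein coding loci. The median log2 fold change was −0.07 over the factors, and it was −0.0049 over all loci tested. Both the count and the median depended on single diabetic libraries. Without diabetic replicate 3, 25 of 47 were negative, near the 50.5% of all loci in that fit, and the median was −0.01, and without diabetic replicate 1, 38 of 47 were negative and the median was −0.15. Without diabetic replicate 2 the values were 35 of 47 and −0.07.

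The sequences around the start sites of these genes were searched for motifs, which do not come from the expression tables. RefSeq promoter sequences (GRCr8, from 250 bases before to 50 bases after the start) were matched by symbol for 43 of the 47 factors. *Bop1*, *Gnl2*, *Rrs1* and *Wdr43* had no entry. The E-box CACGTG, the sequence that Myc and Max are known to bind, was present in 16 of 43 promoters (37.2%). It was present in 6.65% of all 27457 promoters of this length, and in 9.28% of the 9314 promoters of tested protein coding genes. The ETS motif CCGGAAG, searched on both strands as CCGGAAG or CTTCCGG, was present in 22 of 43 (51.2%), against 9.22% of all promoters and 18.2% of those of tested protein coding genes. Both motifs were present in 9 of the 43 promoters and neither in 14. A match to one of these motifs cannot overlap a match to the other. CAGCTG, another E-box of the same length taken for comparison, was present in 4 of 43 (9.30%), against 15.1% of all promoters. Median GC content was 59.0% in the 43 promoters, 61.0% in the promoters of tested protein coding genes and 52.3% in all promoters. The median number of CpG (C followed by G) was 23, 21 and 7 in these sets. CACGTG and CCGGAAG hold a CpG and CAGCTG does not, and the part of CpG content in these shares was not tested.

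In 6 of the 16 promoters with an E-box it lies in the last 120 bases before the start, and 5 of those 6 stretches are shown to display its place. Each is given 5′ to 3′ along the gene, with E-boxes and ETS motifs in capitals. *Utp4* lies at chr19:51702121-51702240 (plus strand), *Utp18* at chr10:79335758-79335877 (minus), *Ltv1* at chr1:9398558-9398677 (minus), *Pes1* at chr14:83074226-83074345 (plus) and *Rrp1* at chr20:10260460-10260579 (plus), all in GRCr8.
Utp4: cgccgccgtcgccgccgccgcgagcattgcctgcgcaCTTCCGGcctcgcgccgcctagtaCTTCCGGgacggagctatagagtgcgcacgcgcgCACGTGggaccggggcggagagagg
Utp18: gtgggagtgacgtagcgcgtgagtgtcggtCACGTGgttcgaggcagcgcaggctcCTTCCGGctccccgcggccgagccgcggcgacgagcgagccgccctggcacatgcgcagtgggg
Ltv1: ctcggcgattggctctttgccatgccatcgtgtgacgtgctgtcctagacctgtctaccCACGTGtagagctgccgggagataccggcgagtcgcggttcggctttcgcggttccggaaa
Pes1: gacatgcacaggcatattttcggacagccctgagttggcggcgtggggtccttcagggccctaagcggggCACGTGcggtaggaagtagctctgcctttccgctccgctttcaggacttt
Rrp1: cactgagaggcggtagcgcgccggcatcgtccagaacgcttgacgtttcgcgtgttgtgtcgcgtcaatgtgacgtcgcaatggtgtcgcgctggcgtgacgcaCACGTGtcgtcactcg

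The first base of the E-box stands at position −25 in *Utp4*, −90 in *Utp18*, −61 in *Ltv1*, −50 in *Pes1* and −16 in *Rrp1*, counted back from −1 at the base before the start. *Utp4* and *Utp18* hold ETS motifs in the same stretch. Some of the factors described further on for their levels are shown for comparison. *Imp3* (chr8:66235378-66235497, plus) holds neither motif in its stretch, *Nop2* (chr4:159618846-159618965, plus) and *Bms1* (chr4:153267430-153267549, minus) hold 1 ETS motif each, and *Ebna1bp2* (chr5:137433414-137433533, plus) holds 2. *Nop2* and *Ebna1bp2* also hold an E-box after the start, outside these stretches, and are among the 16. *Noc2l* and *Wdr75* are not shown. *Noc2l* holds an ETS motif at position 9 after the start, and *Wdr75*, also among the 16, holds an E-box at −160.
Imp3: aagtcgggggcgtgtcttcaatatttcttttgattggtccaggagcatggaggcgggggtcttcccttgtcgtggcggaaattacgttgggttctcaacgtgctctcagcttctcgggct
Nop2: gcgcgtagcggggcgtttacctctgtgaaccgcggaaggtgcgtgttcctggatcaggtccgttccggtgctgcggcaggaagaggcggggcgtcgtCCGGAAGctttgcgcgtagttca
Bms1: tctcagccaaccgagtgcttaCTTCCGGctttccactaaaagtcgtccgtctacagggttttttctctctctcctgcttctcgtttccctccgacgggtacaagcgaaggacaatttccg
Ebna1bp2: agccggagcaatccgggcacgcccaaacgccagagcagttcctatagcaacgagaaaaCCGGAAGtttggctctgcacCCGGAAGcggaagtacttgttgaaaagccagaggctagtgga

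Other genes of the pathway were set beside these. Of 115 promoters of other ribosome biogenesis genes, 24.3% held the E-box and 48.7% the ETS motif. Of 58 promoters of cytosolic ribosomal proteins, 8.62% and 32.8% did. The E-box was therefore listed more often for the factors that assemble ribosomes than for the proteins that compose them, which is a description of letters in a window and not of binding. Among the factors, the 16 with an E-box had a median log2 fold change of −0.12 with 13 negative, and the 27 without one had −0.08 with 19 negative. The 22 with an ETS motif had −0.14 with 18 negative, and the 21 without one had −0.02 with 14 negative. The differences between these sets were not tested.

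**Figure D1:**
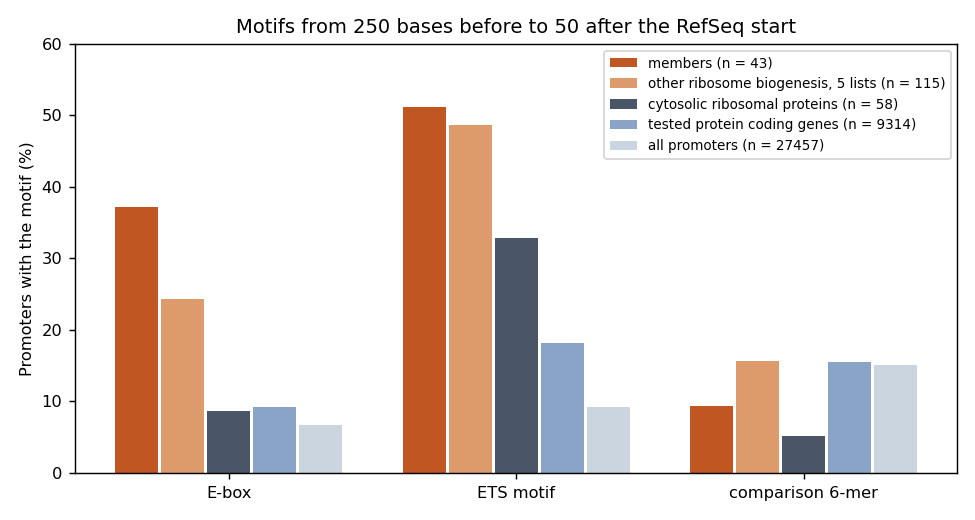
Share of promoters (%, vertical axis) that hold the E-box, the ETS motif or the comparison 6-mer, for the factors, other ribosome biogenesis genes, cytosolic ribosomal proteins, tested protein coding genes and all promoters. The factors reach 37.2% for the E-box and 51.2% for the ETS motif, and 9.30% for the comparison 6-mer.

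Library totals ran from 76500184 to 81139312 counts in normal libraries. They were 87040253, 62288901 and 64263130 in diabetic replicates 1, 2 and 3. The factors held 181 to 9696 counts each per library. The corneal epithelial markers *Krt12* and *Aldh3a1* were high in every library, at 3660 to 4455 FPKM and 9143 to 10326 FPKM, and 13 of 13 epithelial markers found passed the filter. Lens crystallins varied widely between libraries, with 17 genes summing to 132 to 448 FPKM in normal and 8.68 to 1578 FPKM in diabetic libraries, and 8 of them at 0 in at least 1 library. The lens sum was highest in diabetic replicate 2 and lowest in diabetic replicate 3. In scraped tissue, fewer cells of a type and less RNA per cell cannot be told apart.

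Across the 6 libraries the mean level of a factor ran from 2.07 FPKM for *Polr1b*, the second largest subunit of RNA polymerase I, to 35.2 FPKM for *Ncl* (nucleolin), an abundant nucleolar RNA-binding protein. The median factor stood at 4.89 FPKM, against 72.1 FPKM for the median cytosolic ribosomal protein. The 47 FPKM values summed to 324, 314 and 324 in normal and to 335, 293 and 274 in diabetic replicates 1, 2 and 3. The factors took 0.115%, 0.116% and 0.115% of the counts in the normal libraries and 0.117%, 0.106% and 0.0978% in the diabetic ones. The normal libraries were thus close to each other, diabetic replicate 1 lay above all of them, and diabetic replicates 2 and 3 lay below all of them. Library totals split in the same way, with diabetic replicate 1 above and diabetic replicates 2 and 3 below all normal libraries. The part of depth in the levels of the factors was not tested.

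The same split was seen gene by gene. Diabetic replicate 1 lay above all 3 normal libraries in 21 of 47 factors and below all of them in 6, where 24.1% and 23.1% of tested protein coding loci did so. Diabetic replicate 2 lay below all 3 normal libraries in 25 of 47 and diabetic replicate 3 in 34 of 47, against 33.1% and 34.2% of protein coding loci. Diabetic replicate 1 was the highest of the 6 libraries in 20 factors (16.8% of protein coding loci) and diabetic replicate 3 the lowest in 24 (23.8%). The median deviation of the factors from their own means, in quantile-normalized log2(FPKM + 1), was 0.08, 0.03 and 0.05 in the normal libraries and 0.12, −0.05 and −0.17 in the diabetic libraries. In these factors the diabetic libraries were therefore more unlike each other than the normal libraries.

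**Figure D2:**
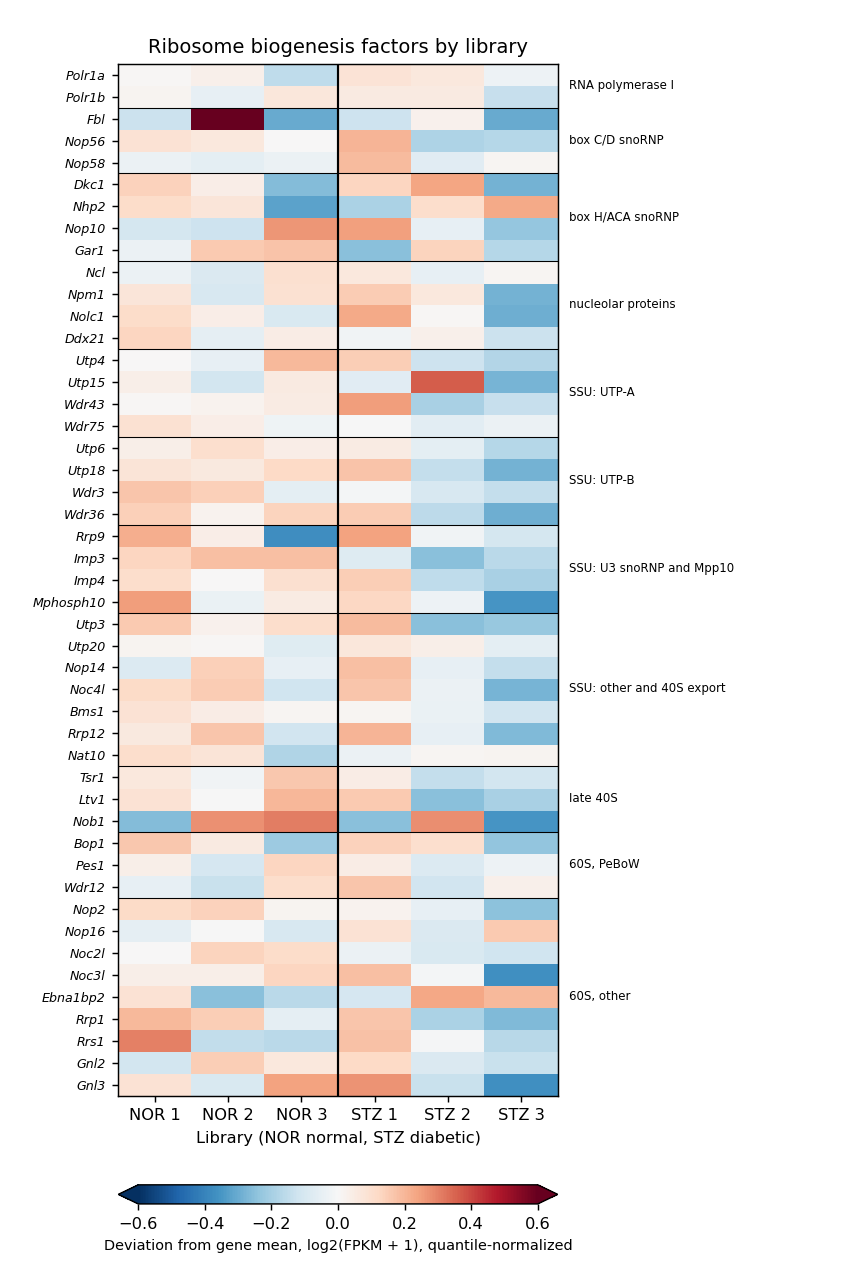
Deviation of each of the 47 factors (rows, grouped by role) from its mean over 6 libraries (columns), in quantile-normalized log2(FPKM + 1), with red above and blue below the mean and a colour scale that ends at 0.6. Diabetic replicate 1 is mostly red and diabetic replicate 3 mostly blue, while *Fbl* in normal replicate 2 lies past the end of the scale. In FPKM, before this normalization, 24 of 47 factors were at their lowest in diabetic replicate 3.

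Over the 6 libraries 74.0% of the 1081 pairs of factors had a positive Pearson correlation, with a median of 0.38. These pairs share libraries, depth and scaling, so the value is a description. The factors most like the others were *Utp18* (median correlation with the other factors 0.67) and *Wdr36* (0.64), both of the UTP-B complex. The least alike were *Ebna1bp2* (−0.48), *Nhp2* (−0.38) and *Nop16* (−0.25).

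The factors whose groups did not overlap are described first. All 3 diabetic libraries lay below all 3 normal libraries in 5 of 47 factors (10.6%), against 5.72% of all loci tested and 5.41% of protein coding loci. No factor lay above in all 3, where 3.94% of all loci and 3.62% of protein coding loci did. With 3 libraries a group, the smallest p of an exact permutation test is 0.10, and each of these 5 factors reached it. With the normalization of the counts by TMM or DESeq2, 2 of the 5 were still without overlap (4.26% of the factors, against 4.91% and 4.75% of loci). Those were *Imp3* and *Noc2l*.

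*Imp3* encodes a protein that joins the U3 snoRNA to the Mpp10 complex, where U3 pairs with the precursor of 18S ribosomal RNA. Its FPKM were 10.65, 10.99 and 11.13 in normal and 9.13, 7.75 and 8.35 in diabetic replicates 1, 2 and 3 (10.9 ± 0.247 and 8.41 ± 0.694, SD, n = 3 each). The groups were clear of each other and the normal values were within a narrow range. The log2 fold change was −0.33 (SE 0.096, limma adjusted p = 0.953), and its unadjusted p of 0.0102 was the only one under 0.05 among the factors. That is 1 of 47 lower and 0 higher in limma, where 1.45% and 1.55% of protein coding loci had such a p. The counts behind it were 1386, 1386 and 1500 in normal and 1305, 795 and 886 in diabetic libraries, and edgeR and DESeq2 gave log2 fold changes of −0.35 and −0.35 with adjusted p of 0.991 and 0.911. The locus is on chromosome 8 from 61607015 to 61608457 (rn6, plus strand) and spans 1443 bases.

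*Noc2l* encodes a nucleolar protein of the early 60S particle. It stood at 12.8, 13.8 and 13.8 FPKM in normal and 12.3, 11.5 and 11.3 in diabetic libraries, with a log2 fold change of −0.17 (SE 0.092) and an adjusted p in limma of 0.953. The lowest normal library stood at 12.76 FPKM and the highest diabetic one at 12.33 (SD 0.589 in normal and 0.550 in diabetic libraries). *Nop2*, which methylates a cytosine of 28S ribosomal RNA, stood at 8.96, 9.14 and 8.37 FPKM in normal and 8.36, 7.73 and 6.73 in diabetic libraries. Its groups were all but touching, and the log2 fold change was −0.18 (SE 0.11).

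*Bms1*, the GTPase of the small-subunit processome, had 5.46, 5.27 and 5.21 FPKM in normal and 5.09, 4.77 and 4.66 in diabetic libraries (log2 fold change −0.10). *Wdr75*, of the UTP-A complex that first binds the precursor, had 4.21, 4.03 and 3.88 FPKM in normal and 3.84, 3.58 and 3.84 in diabetic libraries (log2 fold change −0.07). Both differences were smaller than their standard errors of 0.103 and 0.107.

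**Figure D3:**
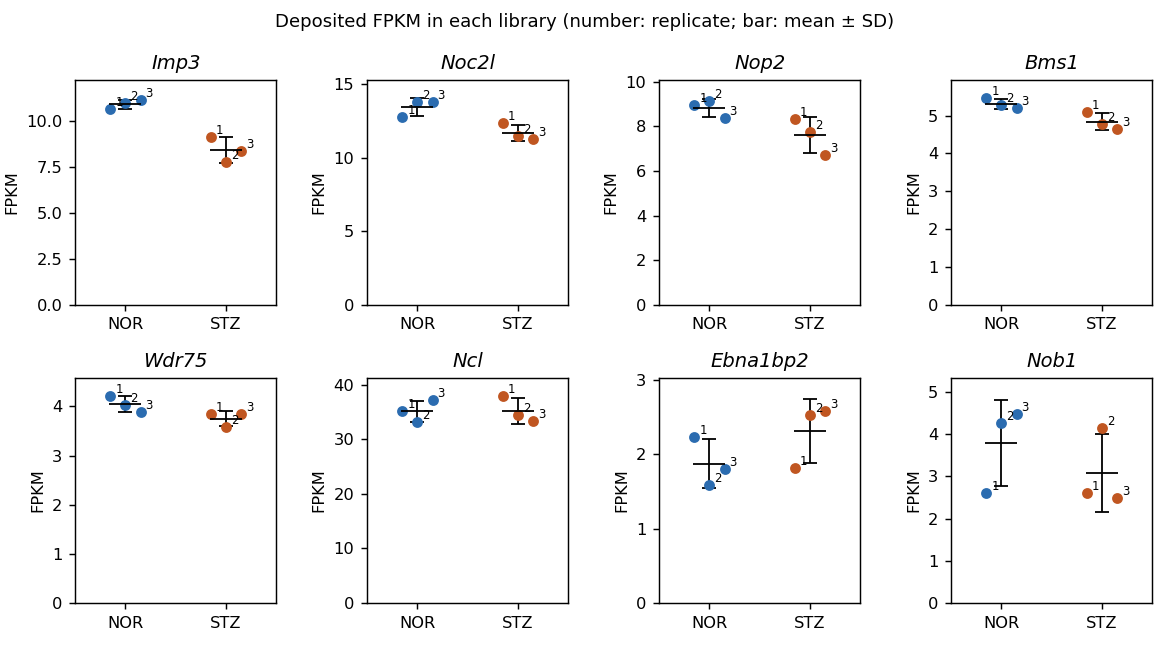
Deposited FPKM (vertical axes, from 0) of 8 factors in the normal (NOR, blue) and diabetic (STZ, orange) libraries, with replicate numbers, mean and SD. *Imp3*, *Noc2l*, *Nop2*, *Bms1* and *Wdr75* do not overlap between groups, *Ncl* (35.2 FPKM in both groups) and *Ebna1bp2* overlap, and *Nob1* falls at 2.49 to 2.62 or 4.15 to 4.48 FPKM in both groups.

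By role, transcription of ribosomal DNA was represented by 2 subunits of RNA polymerase I. *Polr1a*, the largest subunit, stood at 2.97, 3.07 and 2.65 FPKM in normal and 3.16, 3.08 and 2.97 in diabetic libraries. *Polr1b* stood at 2.08, 1.96 and 2.28 and at 2.14, 2.12 and 1.87. Their log2 fold changes were 0.08 and −0.02, and in both the groups overlapped.

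Of the box C/D snoRNP proteins, which methylate the ribose of ribosomal RNA, 2 of 3 were negative (median log2 fold change −0.10). *Nop56*, a scaffold protein and the highest of the 3, had 8.22, 8.07 and 7.77 FPKM in normal and 9.10, 6.49 and 6.69 in diabetic libraries, so that diabetic replicate 1 was above and the other two below all normal libraries. *Fbl* (fibrillarin), the methyltransferase, had 1.99, 4.94 and 1.74 FPKM in normal and 1.98, 2.30 and 1.77 in diabetic libraries. Its log2 fold change of −0.27 (SE 0.293) came from normal replicate 2, and it was 0.08 without that library. The *Fbl* locus also carries the name of its neighbour *Dyrk1b*, and those of *Nop56*, *Nop58*, *Wdr43* and *Gnl3* carry the names of small RNA genes, so that the reads of these 5 loci cannot be assigned to 1 gene.

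The box H/ACA proteins, which convert uridine to pseudouridine, had 2 of 4 negative values and a median of 0.02. *Nop10*, a small structural protein, was highest at 16.6, 16.2 and 21.5 FPKM in normal and 21.8, 16.8 and 14.6 in diabetic libraries. *Nhp2*, an RNA-binding partner, had 3.67, 3.54 and 2.52 FPKM and 2.75, 3.55 and 4.11 FPKM, with a log2 fold change of 0.09 that was −0.04 without normal replicate 3. Neither pattern followed the groups.

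The abundant nucleolar proteins overlapped between groups, and 3 of 4 were negative with a median of −0.04. *Ncl* had 35.1, 33.3 and 37.1 FPKM in normal and 37.9, 34.5 and 33.3 in diabetic libraries (35.2 ± 1.94 and 35.2 ± 2.40, SD, n = 3 each). *Npm1* (nucleophosmin), a chaperone of the nucleolus, had 16.3 to 18.8 FPKM in normal and 13.7 to 19.9 in diabetic libraries. *Nolc1* and the RNA helicase gene *Ddx21* lay at 4.29 to 4.96 and 10.6 to 12.2 FPKM in normal, and at 3.57 to 5.44 and 9.87 to 10.9 FPKM in diabetic libraries.

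The factors of the 40S subunit were the group with the most negative values, 19 of 22, with a median log2 fold change of −0.11. Those of the 60S subunit had 7 of 12 and a median of −0.06. The difference between these 2 sets was not tested. In the lists of other pathway genes, 26 of 39 tested 40S genes were negative (66.7%, median −0.050). Of the other 60S genes 39 of 51 were (76.5%, median −0.045), so the higher share for 40S was not seen there. Within the 40S set, the UTP-B complex had 4 of 4 (median −0.17), the U3 and Mpp10 proteins 3 of 4 (−0.15), the late 40S factors 3 of 3 (−0.19), UTP-A 3 of 4 (−0.06) and the remaining processome and export factors 6 of 7 (−0.07). In FPKM the groups did not overlap in 3 of the 22 (13.6%) and in 2 of the 12 (16.7%), all lower, against 5.72% of all loci. With TMM or DESeq2 scaling 1 in each set, *Imp3* and *Noc2l*, was without overlap.

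Of UTP-B, *Wdr36* was highest, with 6.35, 5.75 and 6.40 FPKM in normal and 6.42, 4.83 and 4.46 in diabetic libraries (log2 fold change −0.20, SE 0.139). Its partners *Utp6*, *Utp18* and *Wdr3* had log2 fold changes of −0.12, −0.17 and −0.17. Diabetic replicate 1 of *Wdr36* lay above every normal library, and diabetic replicates 2 and 3 were the lowest of the 6.

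Of UTP-A, *Utp4* was highest, at 8.11, 7.75 and 9.44 FPKM in normal and 9.12, 7.13 and 6.98 in diabetic libraries (log2 fold change −0.10). Of the other processome and export factors, *Utp3* was highest, at 9.77, 8.79 and 9.42 FPKM in normal and 10.03, 6.88 and 7.13 in diabetic libraries (log2 fold change −0.19). In both genes diabetic replicates 2 and 3 were the lowest libraries. *Nat10*, which acetylates 18S ribosomal RNA, and *Utp20*, a large scaffold protein, had log2 fold changes of −0.0048 and 0.03.

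Of the late 40S factors, *Tsr1*, a GTPase-like protein of the maturing particle, was highest, at 6.79, 6.34 and 7.39 FPKM in normal and 6.72, 5.62 and 5.93 in diabetic libraries (log2 fold change −0.14). *Ltv1*, which acts on the same particle, had a log2 fold change of −0.19. *Nob1*, the endonuclease that makes the final cut of 18S ribosomal RNA, had 2.61, 4.26 and 4.48 FPKM in normal and 2.62, 4.15 and 2.49 in diabetic libraries. Its values formed a high and a low level that both groups share, and the log2 fold change was −0.21 (SE 0.223).

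On the 60S side, the PeBoW complex, which is needed for processing of the large subunit precursor, had 1 of 3 negative and a median of 0.0032. *Pes1*, its best-known member, had 16.1, 14.3 and 17.0 FPKM in normal and 16.2, 14.2 and 14.8 in diabetic libraries. *Bop1* and *Wdr12* had log2 fold changes of 0.0032 and 0.05. The groups overlapped in all 3.

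Of the other 60S factors, 6 of 9 were negative, with a median of −0.13. The exception of largest size was *Ebna1bp2*, a scaffold of the early large subunit, at 2.24, 1.59 and 1.80 FPKM in normal and 1.81, 2.53 and 2.59 in diabetic libraries (log2 fold change 0.22, SE 0.161). It was also the factor least like the others across libraries. *Nop16* had 9.54, 9.88 and 9.27 FPKM in normal and 10.7, 9.03 and 11.0 in diabetic libraries (log2 fold change 0.10). The GTPase gene *Gnl3* (nucleostemin) had a log2 fold change of −0.15, with 3.67 to 4.97 FPKM in normal and 2.93 to 4.98 in diabetic libraries.

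**Figure D4:**
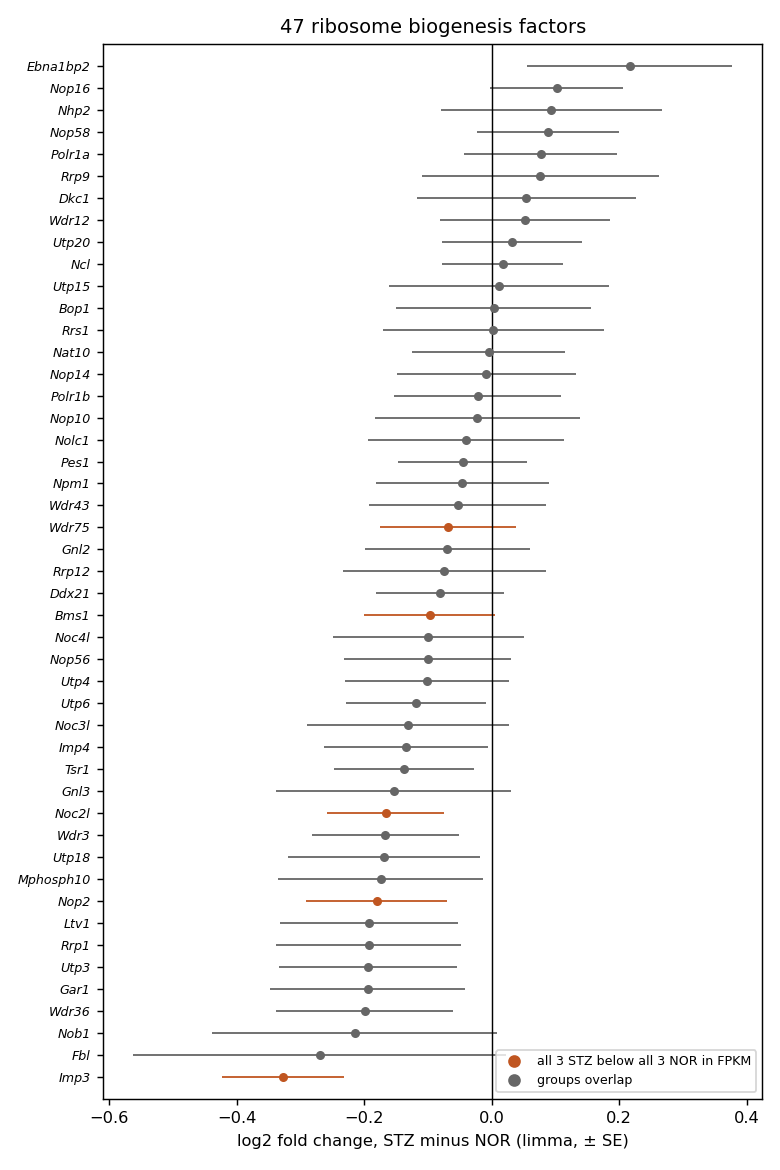
log2 fold change of the 47 factors (horizontal axis, diabetic minus normal, limma, with SE as bars), in order of size, with the 5 factors whose groups do not overlap in orange. 34 of 47 lie left of 0, from −0.33 for *Imp3* to 0.22 for *Ebna1bp2*.

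No factor passed the test in any of 3 tools (limma, edgeR and DESeq2), with lowest adjusted p of 0.953, 0.991 and 0.911. Of all loci 0.00940% passed as higher and 0.00470% as lower in edgeR, and 0.143% and 0.0893% in DESeq2, so a count of 0 among 47 is near this background. At an unadjusted p under 0.05 each tool gave *Imp3* as the 1 lower factor and 0 higher ones. Of protein coding loci 1.43% were lower and 2.22% higher by that measure in edgeR, and 1.56% and 2.60% in DESeq2. The standard errors of the factors ran from 0.092 to 0.293 on the log2 scale, with a median of 0.138. These are errors of single factors and do not measure the error of the median over the factors.

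With diabetic replicate 1 left out, 21 factors rather than 5 were lower without overlap (44.7% of the factors, against 15.5% of all loci with the same libraries). In that fit none of the factors passed, with a lowest adjusted p in limma of 0.448. Without diabetic replicate 3 there were 5 lower (10.6%, against 11.9% of loci). Without diabetic replicate 2 there were 6 (12.8%, against 9.02%). Without normal replicates 1, 2 and 3 there were 8, 7 and 7 (17.0%, 14.9% and 14.9%, against 10.6%, 10.4% and 11.2%). *Imp3* kept its lack of overlap in each of these comparisons.

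The other genes of the pathway were counted from 5 lists (polymerase I, 40S, 60S, snoRNP assembly, nucleases and the exosome). Of 135 tested, 99 were negative in log2 fold change (73.3%, median −0.05), and 0 passed in limma, edgeR or DESeq2. At an unadjusted p under 0.05, 2 were lower in limma, and 1 in each of edgeR and DESeq2, and 0 were higher in any. Of the 135 tested, 8 were lower (5.93%) and 2 higher (1.48%) without overlap between groups, against 5.72% and 3.94% of all loci, so the lower count is at the background. *Esf1*, a processome protein, had 3.57, 3.04 and 3.82 FPKM in normal and 2.12, 2.97 and 1.93 in diabetic libraries (log2 fold change −0.42, SE 0.166). *Taf1b*, of the SL1 factor that recruits polymerase I, had 1.17, 1.65 and 1.61 and 1.72, 2.03 and 2.03 FPKM (log2 fold change 0.26). *Rrp7a* and *Riok3* (40S), *Pinx1* and *Rsl24d1* (60S) and the exosome genes *Exosc1*, *Mphosph6* and *C1d* were the named ones below, with log2 fold changes of −0.26 to −0.09, and *Mtrex*, the helicase of the nuclear exosome, was above at 0.10. Their library medians were 0.03, 0.04 and −0.0091 in normal and 0.09, −0.03 and −0.12 in diabetic libraries, the same order within the diabetic group as for the 47 factors.

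The cytosolic ribosomal proteins showed another pattern, with 30 of 74 negative, a median log2 fold change of 0.02 and library medians from −0.05 to 0.04. The genes that control growth upstream had 7 of 18 negative and a median of 0.05. *Myc* stood at 3.95, 2.83 and 4.74 FPKM in normal and 3.56, 2.42 and 2.32 in diabetic libraries, and the groups overlapped. *Mxd4*, a Myc antagonist, and *Rps6kb1*, the S6 kinase, lay below in all 3 diabetic libraries, with log2 fold changes of −0.18 and −0.06 (2 of 18 genes, 11.1%, against 5.72% of all loci). Of genes of the p53 response to nucleolar stress, 9 of 12 tested were negative with a median of −0.04, and 0 of these 12, of the 18 or of the 74 passed in limma, edgeR or DESeq2. At an unadjusted p under 0.05 in limma, 1 ribosomal protein gene was higher and 0 genes of these 3 lists were lower.

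Other lists moved between the same libraries. Immediate early and stress genes, led by *Hspa1b* and *Klf4*, respond to handling of tissue and had library medians of 0.19, −0.12 and 0.46 in normal and 0.49, −0.45 and −0.33 in diabetic libraries, with 18 of 21 found genes tested and sums of 604 to 966 FPKM in normal and 534 to 1004 FPKM in diabetic libraries. *Egr2* was at 0 in some of these libraries. Cell cycle genes had medians of 0.06, −0.05 and 0.03 in normal and 0.29, 0.08 and −0.40 in diabetic libraries (15 of 15 tested, summing to 190 to 223 and 168 to 224 FPKM). Both lists were highest in diabetic replicate 1, as the factors were. Their part in the levels of the factors was not tested.

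Among markers of other tissues, 11 of 11 keratocyte genes, led by *Col1a1* and *Kera*, passed the filter and summed to 935 to 1173 FPKM in normal and 862 to 978 in diabetic libraries. Of 9 conjunctival genes found, led by *Krt13* and *Krt4*, 5 passed (883 to 1460 and 569 to 1247 FPKM, with *Tff1* and *Tff3* at 0 throughout). Of 13 monocyte genes, led by *Cd68* and *Lyz2* and with *Adgre1*, *Aif1* and *Cd163* at 0 in at least 1 library, 5 passed (34.5 to 38.0 and 36.3 to 47.04 FPKM), and of 8 endothelium and iris genes, led by *Slc4a11* and *Tjp1*, 6 (81.6 to 108 and 75.4 to 117 FPKM). The part of these tissues, and of the lens, in the levels of the factors was not tested.

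**Figure D5:**
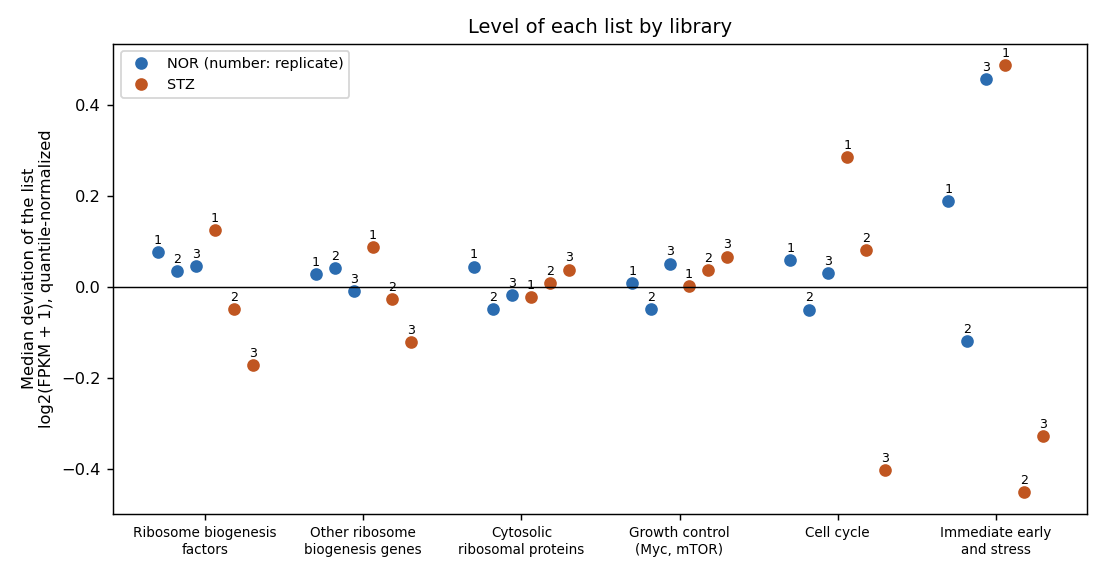
Median deviation of 6 gene lists (horizontal axis) in each library, in quantile-normalized log2(FPKM + 1), with normal libraries in blue, diabetic in orange and replicate numbers above the points. The factors and the other ribosome biogenesis genes run from diabetic replicate 1 (0.12 and 0.09) down to diabetic replicate 3 (−0.17 and −0.12), while the ribosomal proteins range from −0.05 to 0.04.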

How the data were processed

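RNA of scraped corneal epithelium was sequenced from 3 diabetic and 3 normal libraries. According to the submitters' processing notes, reads were trimmed with cutadapt, checked with FastQC and aligned with Bowtie2 to rn6; their versions, the assembler and the counter are not stated there, nor is whether counting used strand. The authors deposited raw counts per locus and FPKM, in which a count of 0 holds a placeholder of 0.0001 that was set to 0 here. Counting floors were 0.0345 to 0.0482 CPM (3 counts, counting error alone).

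The 47 factors, their roles and the other lists were chosen with earlier results of these data known. *Mpp6* was left out of the exosome list after its values were seen, because the symbol belongs to another gene. limma 3.58.1 (R 4.3.3, eBayes with trend) was fitted to quantile-normalized log2(FPKM + 1) over the 42551 loci whose mean FPKM reached 0.5, and fold changes on this scale understate those of low genes. Passing required an adjusted p (Benjamini-Hochberg) under 0.05 together with a fold above 1.2. edgeR 4.0.16 (quasi-likelihood, TMM) and DESeq2 1.42.0 were run on the counts. The main limma, edgeR and DESeq2 fits, and no others, were run on simulated counts with 50 loci changed at each fold. The changed loci were drawn at random from tested loci with an expected count of at least 50, protein coding or not. They were not matched to the factors in level or spread, so the simulation does not say how often a change in a factor would be found. At folds of 1.2, 1.5 and 2, limma and edgeR found 0 of 50 each, and DESeq2 found 0, 2 and 13. At a fold of 4 limma, edgeR and DESeq2 found 8, 9 and 41. Their false calls were 2, 5 and 91 among 42351 unchanged loci. FPKM of single factors were compared by an exact 2-sided permutation test. Named were factors without overlap, the highest of each role, the lowest of all, the 3 largest differences each way, and up to 4 genes without overlap per pathway list. Of each marker list the 2 highest genes are named. *Utp6*, *Utp18*, *Wdr3*, *Wdr12*, *Bop1*, *Npm1*, *Nolc1*, *Ddx21*, *Nat10*, *Utp20*, *Ltv1*, *Rrp1*, *Gnl3* and *Myc* were named for their roles or promoters after their values were seen. Alternatives were other scalings, pseudocounts, filters, loci, variance priors, weights, row choices, a replicate block and leaving out each library. Figures were drawn with matplotlib 3.10.9.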

Additional observations from a re-analysis of the deposited data

How the results depend on the processing

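No factor passed in any of the 23 alternatives run, which with 3 libraries a group says nothing about stability. The count with a negative log2 fold change was 25 to 38 of 47 and the median −0.15 to −0.01, and the lower count, without diabetic replicate 3, is near the 50.5% of all loci in that fit. The number of all loci passing, 11, was 6 at a pseudocount of 0.1, 3 without the filter, 3 for protein coding loci alone, 6 in edgeR with TMM, 5 with upper-quartile factors, 99 in DESeq2, and 3 to 10 when 1 library was left out. Factors lower without overlap were 5 in FPKM (10.6%, against 5.72% of all loci). With the locus of highest mean FPKM for each gene, protein coding or not, they were 6 (12.8%, against 5.72%), and *Gnl2* was the one added. They were 2 after median scaling (4.26%, against 4.97%), 2 by TMM (against 4.91%) and 2 by DESeq2 (against 4.75%). By upper quartile they were 3 (6.38%, against 4.73%). When 1 library was left out they were 5 to 21, with the shares given above. Higher ones were 0 to 2 (at most 4.26%, against 3.94% to 12.3% of loci). Alternatives chosen after seeing the data gave 3 lower factors on quantile-normalized values (6.38%, against 4.87% of loci). Counts summed over the rows of a gene gave 4 (8.51%), for which no share over all loci was taken, and *Wdr75* was no longer among them. On those sums 6 loci passed in edgeR. When 1 library was left out, the log2 fold change of *Fbl* ran from −0.4888 to 0.0827 (without normal replicate 2) and that of *Nhp2* from −0.0448 (without normal replicate 3) to 0.2128, and the cause was not tested. The replicate numbers are shared between groups, but the deviations of same-numbered libraries correlated at −0.0092, 0.025 and 0.032, and not every library correlated best with its own number, so they were not taken as pairs. With the replicate block 1 locus passed in limma and 0 in edgeR, and no factor did. With 3 libraries a group, differences of the size seen here lie within about 2 standard errors for all factors but *Imp3*.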
